A study of Mus musculus with 6 samples.

Results

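The 10 genes described here encode interferon-inducible GTPases of mice, 4 guanylate-binding proteins (GBPs: Gbp2, Gbp3, Gbp5 and Gbp7) and 6 immunity-related GTPases (IRGs: Irgm1, Irgm2, Igtp, Iigp1, Ifi47 and Tgtp1). They were taken by name, as 10 of the 32285 genes listed in the deposited matrices, with earlier results of these data known. They were measured in single cells of pancreatic tumours by 3′ RNA sequencing in droplets, in which a unique molecular identifier (UMI) counts each captured transcript once. The tumours grew in the pancreas of C57BL/6 mice after injection of KPC cells, a pancreatic cancer line derived from KPC mice. All tumours came from KPC cells carrying a construct, which was an empty vector in the OE-Vector group and an overexpression construct of mouse MLKL, the membrane-rupturing protein of necroptosis, in the OE-MLKL group. The mice were 6 to 8 weeks old, and the tumours were taken 4 weeks after injection. The construct was carried by the injected cells and not by the cells of the host, so that every immune cell came from an animal without it. The labels name 6 samples, 3 in each group. The matrices of OE-Vector 1 and of OE-MLKL 1, 2 and 3 were used, and those of OE-Vector 2 and 3 were not analysed here.

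GBPs and IRGs are among the most strongly induced genes of the response to interferon-gamma, which signals through its receptor (Ifngr1, Ifngr2) and the kinases Jak1 and Jak2, and onwards through the factor Irf1. GBPs are large GTPases that coat vacuoles of intracellular microbes and bacterial lipopolysaccharide, and some of them feed caspase-11 and the inflammasomes. IRGs fall into a regulatory set that sits on the membranes of the host (the GMS proteins, here Irgm1, Irgm2 and Igtp) and an effector set that loads onto vacuoles of microbes (the GKS proteins, here Iigp1, Ifi47 and Tgtp1). The GMS proteins hold the GKS proteins inactive on the membranes of the cell itself, and the ubiquitin-like machinery around Atg5 and Atg16l1 is needed for their placement.

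The 4 GBP genes lie together on chromosome 3 of the GRCm38 mouse genome (GENCODE vM21), with Gbp5 at chr3:142493978-142522344, Gbp7 at chr3:142530342-142550149, Gbp3 at chr3:142560026-142573209 and Gbp2 at chr3:142620602-142638008, all on the plus strand. On chromosome 11, Irgm1 lies at chr11:48861968-48871683 and Tgtp1 at chr11:48985327-48994172 on the minus strand, and Ifi47 lies at chr11:49076587-49096974 on the plus strand. Igtp at chr11:58199556-58207591 lies within the span of Irgm2 at chr11:58199618-58222782 for nearly all of its length, on the same plus strand. Iigp1 lies on chromosome 18. The last 500 bases of the longest transcript of each gene, which 3′ reads cover, held 441 windows of 60 bases. None was shared with another gene for 9 of the members. The ends of shorter transcripts were not summarised. For Tgtp1 all 441 were shared with its near-copy Tgtp2, so that its counts are uncertain.

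The promoters of the genes were read for the letters of elements known from interferon-induced genes. The gamma-activated site (GAS) was searched as TTCNNNGAA and the interferon-stimulated response element (ISRE) as 2 runs of GAAA with any 2 bases between them, on both strands, in the 250 bases before the start of each gene (RefSeq, GRCm38.p6). Of 27025 mouse genes in the table, 3.46% had ISRE letters and 8.13% GAS letters in that window of a promoter. Of the 9 members in the table, 8 had ISRE letters, 5 had GAS letters, 5 had both and 1, Ifi47, had neither. Iigp1 was not among the 9. Of the other GBP and IRG genes, 7 were in the table, and 4 of them had ISRE letters and 3 GAS letters. No GAS match overlapped an ISRE match.

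Stretches of these promoters are shown because they show how the elements are arranged, with every match of either motif in capitals.
Gbp7, chr3:142530216-142530306, plus strand: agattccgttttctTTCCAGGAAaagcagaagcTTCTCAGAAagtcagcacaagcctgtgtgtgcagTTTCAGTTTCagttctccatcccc
Igtp, chr11:58199476-58199555, plus strand: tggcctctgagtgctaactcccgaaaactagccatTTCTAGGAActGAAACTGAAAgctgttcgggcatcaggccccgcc
Irgm2, chr11:58214867-58214946, plus strand: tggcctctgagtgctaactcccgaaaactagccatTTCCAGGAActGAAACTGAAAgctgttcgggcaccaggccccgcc
Irgm1, chr11:48871426-48871455, minus strand: ttcaaGAAATAGAAACCGAAActgattctc
Gbp2, chr3:142620594-142620623, plus strand: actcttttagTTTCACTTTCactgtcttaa
In Igtp and Irgm2 a GAS match and an ISRE match were 2 bases apart, as they were in Tgtp1. The stretches of Igtp and Irgm2 were identical at 78 of 80 positions (97.5%). In Gbp7, 2 GAS matches lay 25 and 44 bases from the ISRE match, which was read on the other strand as TTTC letters. In Gbp5 the distances were 71 and 103 bases. Irgm1 had 2 overlapping ISRE matches and no GAS match, and Gbp2 had an ISRE match alone in the stretch shown. The stretches of Irgm1 and Gbp2 overlap an annotated exon, and that of Irgm2 lies inside the gene and outside its exons. A match is a run of letters and was not tested for binding.

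Total depth was 150591289 to 169978362 UMIs per library, and 15382 to 23063 barcodes per library passed as cells. Cells were assigned to 5 classes by lists of marker genes that hold no interferon-induced gene, so that the levels of those markers are no finding. The classes held 3176 to 8552 cancer-like, 2042 to 3103 macrophage-like, 5317 to 8448 neutrophil-like, 26 to 182 dendritic cell-like and 594 to 974 T cell-like cells per library. From 4.79 to 21.6% of cancer-like cells and 10.4 to 42.3% of dendritic cell-like cells lay within 1.5 times the threshold of their gate. Any 2 libraries shared 0.475 to 0.741% of barcodes of the smaller. Mlkl, the overexpressed gene, stood at 16.4 CPM in cancer-like cells of OE-Vector 1, CPM being UMIs of a gene per 1000000 UMIs of the class. It stood at 8.58, 13.0 and 19.7 CPM in the libraries carrying the labels OE-MLKL 1, 2 and 3, so that 2 of them lay below OE-Vector 1 and 1 above it. Whether transcripts of the construct are counted in the matrices is not given in the sources used here, so that these counts do not check the labels.

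The first question was which cells of the tumour carry GBP and IRG transcripts. The summed levels of the 10 genes were compared by their means over libraries, without a test. They were 1542 ± 790 CPM (SD, n = 4) in neutrophil-like, 1153 ± 197 in macrophage-like, 927 ± 509 in cancer-like, 509 ± 171 in dendritic cell-like and 505 ± 147 CPM in T cell-like cells. Throughout, values of 4 libraries are given in the order OE-Vector 1, OE-MLKL 1, OE-MLKL 2, OE-MLKL 3. Neutrophil-like cells read 2153, 641, 1121 and 2254 CPM. Cancer-like cells read 1320, 414, 567 and 1407 CPM. In both classes OE-Vector 1 and OE-MLKL 3 stood together above OE-MLKL 1 and 2. In macrophage-like cells the 4 libraries lay closer, at 1165, 883, 1212 and 1353 CPM. The order of classes varied with the library, with macrophage-like above neutrophil-like cells in OE-MLKL 1 and 2, cancer-like above macrophage-like cells in OE-Vector 1 and OE-MLKL 3, and dendritic cell-like (634 CPM) above cancer-like cells in OE-MLKL 2.

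**Figure D1:**
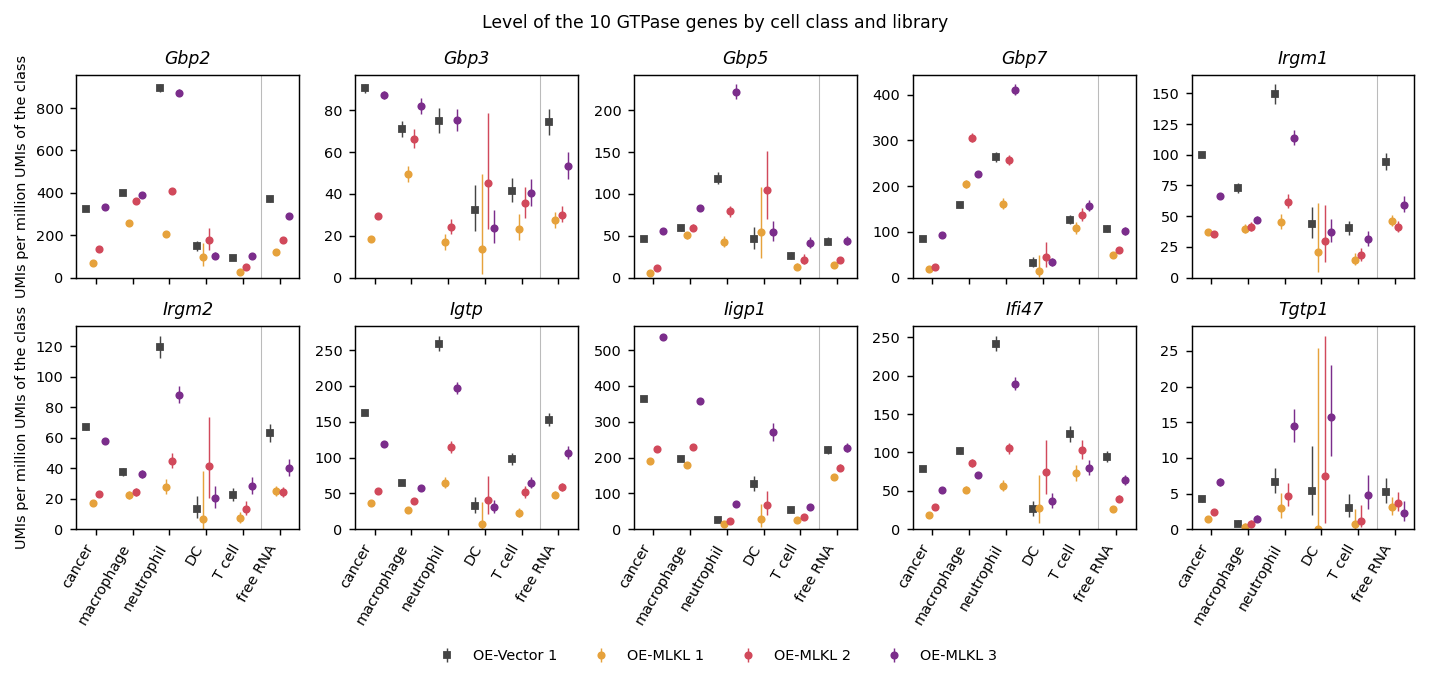
Level of each GTPase gene in CPM of the cell class, in each library, with 95% Poisson intervals for counting error. In neutrophil-like cells Gbp2 lies between 206 and 894 CPM, and Iigp1 lies at 189 to 536 CPM in cancer-like and 179 to 359 CPM in macrophage-like cells.

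Free RNA, taken from barcodes with at most 100 UMIs, held the 10 genes at 509 to 1225 CPM, so that part of the counts in any class can come from it. Ifng, which T cells make, gave a measure of that part in classes that should lack it. Its level was 3.93 to 13.4% of its free RNA level in cancer-like cells, 6.998 to 19.6% in macrophage-like, 12.6 to 20.3% in neutrophil-like and 0 to 15.4% in dendritic cell-like cells. The same share of the free RNA would bring 20.04 to 98.0 CPM of the 10 genes into cancer-like cells and 90.5 to 154 CPM into neutrophil-like cells. Those amounts are below the summed levels in each library. Gene by gene, the level was above this amount in 4 of 4 libraries in cancer-like, macrophage-like and neutrophil-like cells, apart from Iigp1 in neutrophil-like (1 of 4) and Tgtp1 in macrophage-like cells (2 of 4). In dendritic cell-like cells of OE-MLKL 3 the amount was 153 CPM of the 10 genes, and each gene was above its own. The other 3 libraries had no Ifng UMI in that class, so that the comparison could not be made there, nor in T cell-like cells, which make Ifng.

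Differences between classes were tested within libraries, over the 10 pairs of classes, by edgeR with Benjamini-Hochberg adjustment over all genes of a pair. Of 100 tests, 10 genes in 10 pairs, 78 passed. Many of all genes tested also passed. Between cancer-like cells and macrophage-like, neutrophil-like, dendritic cell-like and T cell-like cells, 7, 9, 6 and 8 of 10 members passed, compared with 68.8, 80.5, 54.5 and 65.3% of all genes. Between macrophage-like cells and neutrophil-like, dendritic cell-like and T cell-like cells, 8, 9 and 8 members passed, compared with 69.7, 35.5 and 60.5%. Between neutrophil-like cells and dendritic cell-like and T cell-like cells, 9 and 8 members passed, compared with 57.7 and 71.7%, and between dendritic cell-like and T cell-like cells 6 members, compared with 36.6%. The direction of a class difference is relative to the other genes, since TMM scaling moved the median over all genes by up to 0.45 on the log2 scale. No difference that passed turned its direction under scaling by library size alone.

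Gbp2, which binds to vacuoles and free bacteria, was at 893.8, 206.3, 406.9 and 873.1 CPM in neutrophil-like cells. In macrophage-like cells it was at 401.4, 259.0, 361.0 and 390.9 CPM, and in cancer-like cells at 324.8, 70.5, 135.5 and 333.4 CPM. OE-MLKL 1 was lowest in each of these classes, and the neutrophil-like and macrophage-like ranges overlapped. The level was higher in neutrophil-like than in macrophage-like cells by 0.79 ± 0.27 (log2, SE; edgeR adjusted p = 0.013). That call was lost without OE-MLKL 3, without OE-Vector 1, with scaling by library size alone and without the library term. Macrophage-like cells were above cancer-like cells by 1.16 ± 0.27 (edgeR adjusted p = 0.00073), a call lost without the library term. In T cell-like cells Gbp2 was at 24.2 to 102.7 CPM, below every other class, though the call against dendritic cell-like cells (1.003 ± 0.32, edgeR adjusted p = 0.020) was lost without OE-MLKL 2, with limma-voom, with thinned cells and without the library term. Cancer-like and dendritic cell-like cells were not told apart (0.58 ± 0.31, edgeR adjusted p = 0.13).

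Gbp7 was at 263.4, 161.5, 256.7 and 410.6 CPM in neutrophil-like cells and at 158.4, 204.4, 306.0 and 225.6 CPM in macrophage-like cells. These ranges overlapped, and the classes were not told apart (0.44 ± 0.32, edgeR adjusted p = 0.23). T cell-like cells read 126.1, 108.7, 137.2 and 157.1 CPM, a narrow range that lay above every cancer-like library, at 83.7, 19.1, 23.1 and 93.8 CPM. The difference was 1.49 ± 0.33 (edgeR adjusted p = 0.00063). Dendritic cell-like cells had 13.8 to 45.0 CPM from 2 to 56 UMIs.

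Gbp5, a GBP tied to the activation of inflammasomes, was at 118, 42.9, 79.1 and 222 CPM in neutrophil-like cells and at 46.4, 55.1, 105 and 54.8 CPM in dendritic cell-like cells, which were the higher of the 2 classes in OE-MLKL 1 and 2. In macrophage-like cells it was at 58.9, 50.4, 59.6 and 83.1 CPM, and in cancer-like cells at 45.8, 5.75, 10.9 and 56.2 CPM. Neutrophil-like cells were above macrophage-like cells by 0.88 ± 0.37 (edgeR adjusted p = 0.038), and this call was lost under 9 of the 14 alternatives. The call against dendritic cell-like cells (1.39 ± 0.48, edgeR adjusted p = 0.019) was lost under 6 alternatives, among them without OE-MLKL 3 and without OE-Vector 1. The difference from cancer-like cells was larger, at 2.58 ± 0.37 (edgeR adjusted p = 3.4e-06). Gbp3, the GBP with the flattest pattern, was at 49.4 to 82.0 CPM in macrophage-like cells and at 16.9 to 75.2 CPM in neutrophil-like cells. No neighbouring classes in its order of levels were told apart, and 4 of its 10 pairs passed.

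Among the regulatory IRGs, Irgm1 was at 149.4, 45.2, 61.8 and 114.0 CPM in neutrophil-like cells. Cancer-like cells had 100.1, 37.4, 35.6 and 66.1 CPM and macrophage-like cells 72.6, 39.8, 41.3 and 47.3 CPM. In each class OE-Vector 1 was highest. Neutrophil-like cells were above macrophage-like cells by 1.05 ± 0.15 (edgeR adjusted p = 6.9e-06), and macrophage-like and cancer-like cells were not told apart (0.03 ± 0.15, edgeR adjusted p = 0.89). Irgm2 also had its highest fitted level in neutrophil-like cells, at 27.5 to 119 CPM, 1.24 ± 0.23 above cancer-like cells (edgeR adjusted p = 6.9e-05). Cancer-like and macrophage-like cells were not told apart for Irgm2 (0.08 ± 0.23, edgeR adjusted p = 0.77). Its reads come from a gene whose span includes Igtp on the same strand.

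For Igtp, the third regulatory IRG, cancer-like cells stood above macrophage-like cells. It was at 162.1, 36.0, 53.7 and 119.6 CPM in cancer-like cells and at 65.1, 26.5, 38.9 and 57.3 CPM in macrophage-like cells. Each library had the higher level in its cancer-like cells, and the difference was 0.65 ± 0.17 (edgeR adjusted p = 0.0018). This call was lost without the library term. Neutrophil-like cells were again highest, at 259.3, 65.1, 114.6 and 197.1 CPM. They were above cancer-like cells by 1.28 ± 0.17 (edgeR adjusted p = 8.0e-07). Cancer-like cells were also above T cell-like cells, by 0.54 ± 0.17 (edgeR adjusted p = 0.010). That call was lost without OE-MLKL 3 and without the library term, and the direction turned with cells thinned to 500 UMIs (-0.16).

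Iigp1, an effector IRG that loads onto the vacuole, had a pattern of its own among the 10 genes. It was at 363.3, 189.1, 224.5 and 535.5 CPM in cancer-like cells and at 25.9, 15.8, 22.98 and 69.9 CPM in neutrophil-like cells. These ranges did not overlap, and cancer-like cells were above neutrophil-like cells by 2.92 ± 0.23 (edgeR adjusted p = 5.5e-10). In neutrophil-like cells the amount that free RNA would bring at the share of Ifng was 27.8, 25.9, 34.9 and 30.3 CPM. The level there was above this amount in OE-MLKL 3 and below it in the other 3 libraries. The share rests on few Ifng UMIs, at 1.70, 0.64, 0.54 and 2.09 CPM, and its counting error was not carried over. Levels near this amount are thus not told apart from background. Macrophage-like cells had 196.7, 178.7, 228.3 and 358.8 CPM, which was not told apart from cancer-like cells (0.18 ± 0.20, edgeR adjusted p = 0.46). Dendritic cell-like cells were 1.66 ± 0.24 above neutrophil-like cells (edgeR adjusted p = 1.1e-05), and T cell-like cells were not told apart from neutrophil-like cells. Of the 8 pairs called for Iigp1, none was lost when any 1 library was left out.

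The share of Iigp1 among the UMIs of the 10 genes, which no scaling between classes touches, was 27.5 to 45.7% in cancer-like and 16.9 to 26.5% in macrophage-like cells. It was 1.20 to 3.099% in neutrophil-like cells and 18.0 to 28.6% in free RNA. In neutrophil-like cells Gbp2 instead took 32.2 to 41.5% of the UMIs. A transcript captured at its 3′ end is counted once whatever its length. Whether intronic reads were counted is not given, so that a part of gene length in these shares was not tested.

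Ifi47, an effector IRG, had its highest fitted level in neutrophil-like cells, at 241.8, 56.7, 105.2 and 189.5 CPM, and T cell-like cells came next. T cell-like cells had 123.7, 72.7, 103.6 and 80.02 CPM, above neutrophil-like cells in OE-MLKL 1, and the ranges of these 2 classes overlapped. The difference was 0.92 ± 0.29 (edgeR adjusted p = 0.0088), lost without OE-MLKL 3, without OE-Vector 1, with thinned cells and with scaling by library size alone. T cell-like cells were above cancer-like cells, at 78.1, 18.6, 28.5 and 51.4 CPM, by 1.31 ± 0.29 (edgeR adjusted p = 0.00057). Tgtp1, whose 3′ end is shared with Tgtp2, did not exceed 15.7 CPM in any class and library. It had its lowest fitted level in macrophage-like cells, at 0.31 to 1.47 CPM from 4 to 33 UMIs. The level was 3.43 ± 0.23 higher in neutrophil-like cells (edgeR adjusted p = 1.9e-10).

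**Figure D2:**
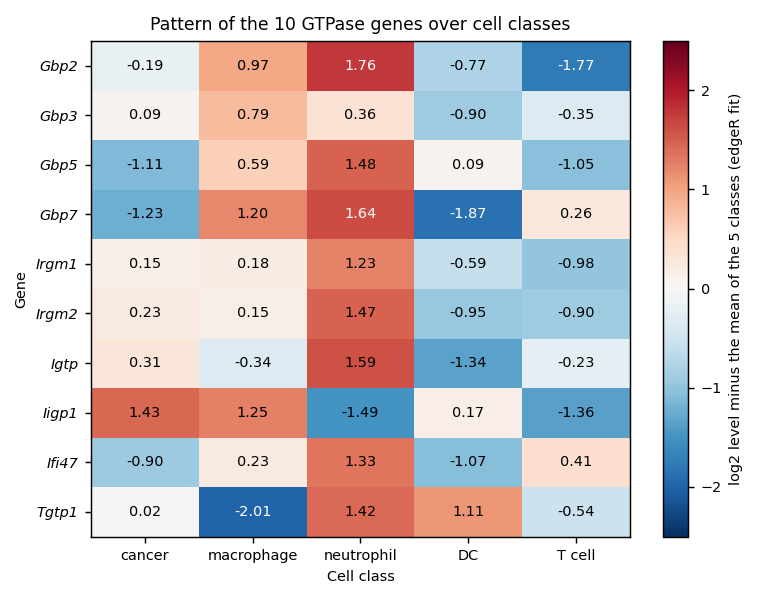
Fitted log2 level of each GTPase gene in a cell class minus the mean of its 5 classes, from the edgeR fit within libraries, with the value in each cell. Neutrophil-like cells are above the mean for 9 genes, by 0.36 for Gbp3 to 1.76 for Gbp2, and Iigp1 is 1.49 below it there and 1.43 above it in cancer-like cells.

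Across the 20 sums of a class in a library, the log2 levels of Irgm1 and Irgm2 correlated at r = 0.90 and those of Gbp2 and Irgm1 at r = 0.89. Iigp1 and Ifi47 gave r = -0.34, and Gbp7 and Iigp1 r = -0.16. The points share libraries and depth and are not independent, so that no p-value was given. The 5 other genes whose levels were most like the mean of the members over the 20 sums, among 11708 genes, were Oas2 (r = 0.89), Nod1 (r = 0.88), Tgm2 (r = 0.88), Tgfbr1 (r = 0.87) and Cxcl10 (r = 0.86). Oas2 is an interferon-induced sensor of double-stranded RNA, Nod1 a receptor for bacterial peptidoglycan and Cxcl10 an interferon-induced chemokine.

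Of the 19 other GBP and IRG genes, 15 were tested between classes, and cancer-like cells were higher for 3 and lower for 7 of them compared with macrophage-like cells, where 68.8% of all genes passed. In this paragraph the shares of all genes count either direction, while list genes are counted by direction. Gbp2b was lower by 5.73 ± 0.38 and Gbp8 by 3.01 ± 0.30 in cancer-like cells (log2, SE; edgeR adjusted p = 7.1e-11 and 2.5e-08). The other interferon-gamma targets, which include the immunoproteasome and chemokine genes, were lower in cancer-like than in macrophage-like cells for 12 and higher for 1 of 14. Psmb9, a subunit of the immunoproteasome, was lower by 3.23 ± 0.22 and Tap1, a peptide transporter, by 2.44 ± 0.17 (edgeR adjusted p = 1.2e-10 and 1.8e-10). Type I interferon targets were higher in neutrophil-like than in T cell-like cells for 10 of 11 and in macrophage-like than in T cell-like cells for 8 of 11, where 71.7 and 60.5% of all genes passed. The genes of caspase-11 and the inflammasomes were lower in cancer-like than in neutrophil-like cells for 6 of 8, and those of ubiquitin-like conjugation for 8 and higher for 2 of 11, where 80.5% of all genes passed. Type I interferon receptor and signal genes were lower in cancer-like than in neutrophil-like cells for 7 of 7, and genes of the interferon-gamma ligand, receptor and signal for 11 of 11. These 11 include Ifng, at 0.14 to 1.33 CPM in cancer-like and 0.54 to 2.09 CPM in neutrophil-like cells. Such levels were taken above as a measure of free RNA.

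The ligand was found in T cell-like cells, which were high in one receptor chain and low in the other. Ifng was at 314.2, 134.1, 143.4 and 282.5 CPM in T cell-like cells and at no more than 2.41 CPM in any other class and library. T cell-like cells were above the other classes by 7.11 to 8.49 on the log2 scale (edgeR adjusted p = 2.4e-10 or less). A cell passing the NK cell list was left out of the T cell-like class only where it exceeded the NK cell threshold by the larger factor. NK cell markers summed to 2565, 725, 938 and 1792 CPM in T cell-like cells. Whether NK cells, which also make interferon-gamma, were among them was not tested. Ifngr1, the ligand-binding chain, was at 287 to 416 CPM in T cell-like and 40.7 to 200 CPM in cancer-like cells. Ifngr2, the second chain, was at 6.65 to 14.7 CPM in T cell-like and 95.1 to 188 CPM in neutrophil-like cells, 4.08 ± 0.19 higher in the latter (edgeR adjusted p = 9.0e-13). Irf1 was higher in neutrophil-like cells than in any other class, by 1.85 ± 0.21 over macrophage-like cells (edgeR adjusted p = 2.5e-07).

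**Figure D3:**
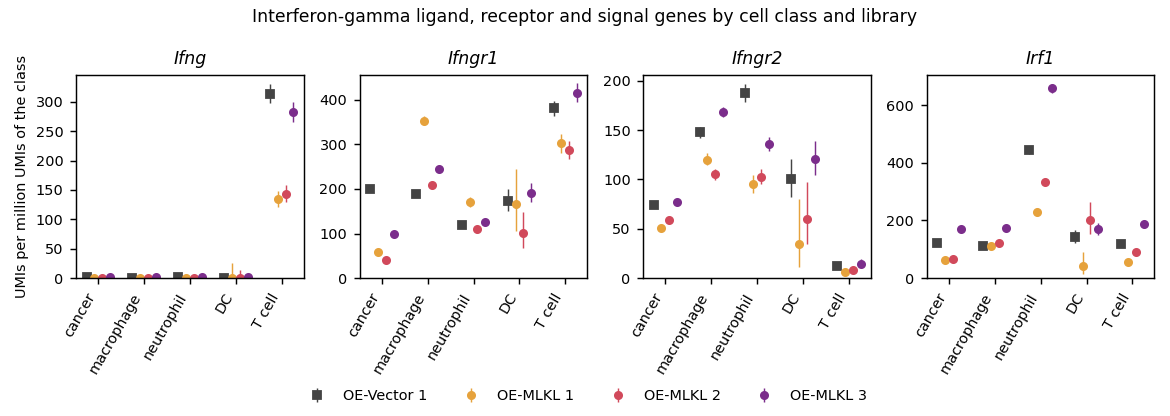
Levels of the interferon-gamma ligand, its receptor chains and the factor Irf1 in CPM of the class, by class and library, with 95% Poisson intervals. Ifng reaches 134 to 314 CPM in T cell-like cells, and Irf1 reaches its highest level, 659 CPM, in neutrophil-like cells of OE-MLKL 3.

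Within classes, the share of cells with a UMI of any member was compared after each cell had been thinned to 1000 UMIs, with shallower cells left out. In cancer-like cells it was 50.6, 21.4, 27.1 and 49.9%, against 92.4, 72.8, 75.7 and 92.2% before thinning, when median depths were 24326, 12438, 12011 and 19724 UMIs. Neutrophil-like cells had 56.0, 31.3, 45.5 and 59.0% after thinning. Only 1184 of 5317 neutrophil-like cells of OE-MLKL 1 and 1940 of 8448 of OE-MLKL 2 were deep enough to count, compared with 4683 of 6306 in OE-Vector 1. Macrophage-like cells had 50.8, 41.2, 55.0 and 52.2%, and T cell-like cells 44.9, 26.5, 37.4 and 43.4%. No class should lack these genes, so no class gave a background share.

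**Figure D4:**
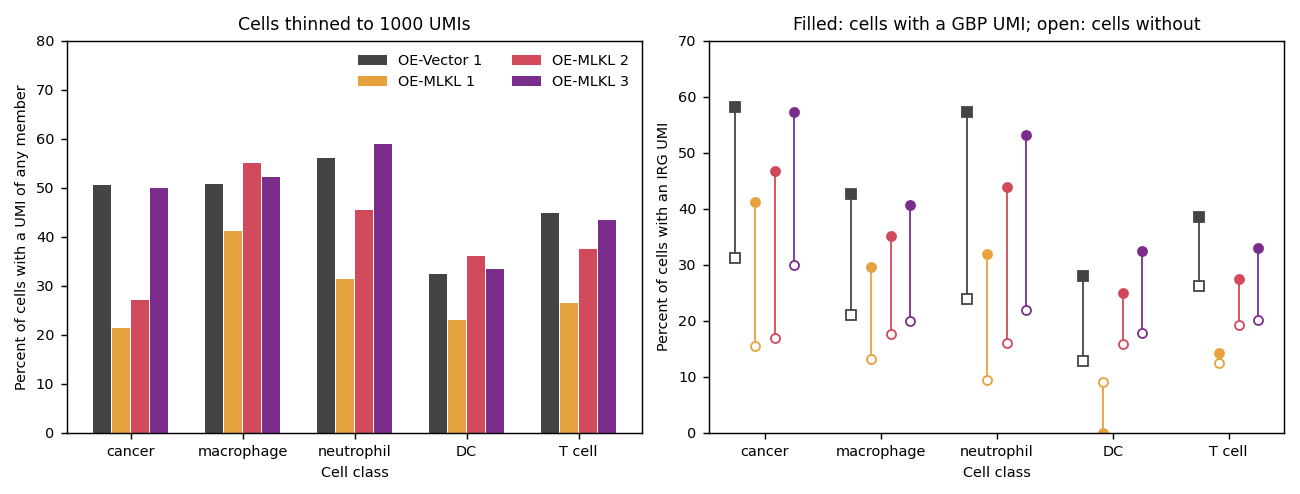
Left, share of cells, thinned to 1000 UMIs each, with a UMI of any of the GTPase genes, by class and library. Right, share of such cells with an IRG UMI, among cells with a GBP UMI (filled) and without (open). In cancer-like cells that share is 41.2 to 58.1% with a GBP UMI and 15.5 to 31.3% without. Iigp1 alone, not drawn, was seen in 12.1 to 26.8% of cancer-like cells and in 1.605 to 6.03% of neutrophil-like cells. Its level in neutrophil-like cells was below the amount estimated for free RNA in 3 of 4 libraries.

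The finding of GBP and IRG transcripts in the same cells was described next. In cancer-like cells with a GBP UMI, 58.1, 41.2, 46.8 and 57.3% also had an IRG UMI, compared with 31.3, 15.5, 16.9 and 29.9% of those without. The share was higher with a GBP UMI in 4 of 4 libraries for cancer-like, macrophage-like, neutrophil-like and T cell-like cells, and in 3 of 4 for dendritic cell-like cells, where it was 9.09 percentage points lower in OE-MLKL 1 from 4 cells with a GBP UMI. The gap was 22.4 to 33.3 percentage points in neutrophil-like and 1.76 to 12.9 in T cell-like cells. Cells within a library are not replicates, and no test was made over them.

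The second question was whether the libraries labelled OE-MLKL differed from OE-Vector in these genes. With 1 OE-Vector library the spread was estimated from the OE-MLKL libraries alone, and a difference of the groups cannot be told apart from a difference between tumours. No member passed in any of the 5 classes by edgeR, DESeq2 or limma-voom. Of all genes, 0% passed in cancer-like and in macrophage-like cells, 0.00763% in neutrophil-like, 0.0485% in dendritic cell-like and 0.00852% in T cell-like cells by edgeR. At an unadjusted p under 0.05 stood 3 members in cancer-like, 1 in macrophage-like, 2 in neutrophil-like, 0 in dendritic cell-like and 2 in T cell-like cells, compared with 4.76, 5.96, 8.25, 3.43 and 4.86% of all genes. Scaling by library size alone moved the median over all genes by 0.12 in cancer-like and 0.24 in neutrophil-like cells on the log2 scale.

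In cancer-like cells all 10 members had lower fitted levels in OE-MLKL, with a median log2 difference of -1.17 compared with 0.03 over all genes, 47.2% of which were fitted lower. All 120 values of the 12 alternatives were also below 0. Every alternative used the same OE-Vector library, so that these values are not independent. Ifi47 differed by -1.41 ± 0.42 (log2, SE), Igtp by -1.39 ± 0.51 and Irgm1 by -1.25 ± 0.32 (edgeR adjusted p = 0.99, 0.99 and 0.96). Irgm1 stood at 100.1 CPM in OE-Vector 1, above the 37.4, 35.6 and 66.1 CPM of the OE-MLKL libraries. Iigp1 stood at 363.3 CPM, between the 189.1 and 224.5 CPM of OE-MLKL 1 and 2 and the 535.5 CPM of OE-MLKL 3. OE-Vector 1 was above all OE-MLKL libraries for 5 of 10 members, as it was for 17.7% of all genes, and below all for 0, compared with 33%. For the other 5 members OE-MLKL 3 was higher.

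Members passed in these cells only when OE-MLKL 3 was left out. Without it, 7 of 10 members (Gbp3, Gbp5, Gbp7, Irgm1, Irgm2, Igtp and Ifi47) passed in cancer-like cells, where 2.25% of all genes did. The 2 libraries that remained were the low ones, set against 1 library, so that this count follows from which library was left out and is no evidence of a difference between the groups. Without OE-MLKL 1 or without OE-MLKL 2, no member passed by edgeR, where 0.728 and 0.238% of all genes did. OE-MLKL 3 shared other properties with OE-Vector 1, and their part in the result was not tested. Median UMIs per cancer-like cell were 24326 in OE-Vector 1, 12438 and 12011 in OE-MLKL 1 and 2 and 19724 in OE-MLKL 3. Summed T cell markers in cancer-like cells were at 27.9, 8.81, 12.7 and 25.9 CPM, with 11 of 11 detected in each, and T cell-like cells made up 6.33, 3.22, 2.93 and 4.76% of cells. In cancer-like cells the 7 NK cell markers summed to 20.04, 5.53, 8.50 and 18.1 CPM, and the 7 B cell markers to 13.0, 4.75, 4.36 and 11.4 CPM. The 4 monocyte markers there summed to 695, 331, 215 and 389 CPM, and the 7 fibroblast markers to 248, 182, 187 and 264 CPM. At least 6 of 7, 7 of 7, 4 of 4 and 7 of 7 of these markers were detected in each library. Each of these lists was higher in OE-Vector 1 and OE-MLKL 3 than in OE-MLKL 1 and 2, as the members were. The neutrophil markers did not follow them, at 441, 346, 609 and 911 CPM in cancer-like cells, with OE-MLKL 2 above OE-Vector 1. The dendritic cell markers were flat there, at 53.0, 53.1, 53.4 and 53.9 CPM. Macrophage markers in cancer-like cells were at 675, 555, 605 and 1140 CPM, with 10 of 10 detected, and were highest in OE-MLKL 3. The 4 monocyte markers were also found in T cell-like cells, at 1068, 825, 700 and 654 CPM, above cancer-like cells of each library. They thus do not mark monocytes alone here.

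Neutrophil-like cells gave a like picture. Fitted levels were lower in OE-MLKL for 9 of 10 members, compared with 47.3% of all genes, with a median of -1.16. Gbp2 differed by -1.11 ± 0.70 and Irgm2 by -1.41 ± 0.56 (edgeR adjusted p = 0.69 and 0.60). OE-Vector 1 was above all OE-MLKL libraries for 5 members, compared with 16.2% of all genes, and below all for 0, compared with 43.1%. OE-MLKL 1 was lowest for all 10. Without OE-MLKL 1 or without OE-MLKL 2 no member passed by edgeR, where 0.0536 and 0% of all genes did. Without OE-MLKL 3, 7 members passed, where 15.6% of all genes did, and the same limit holds as in cancer-like cells. Median UMIs per neutrophil-like cell were 1208, 738, 772 and 1424. Summed levels of the 7 B cell markers in this class were 174, 15.8, 22.4 and 103 CPM, of the 7 NK cell markers 27.4, 2.56, 5.91 and 21.8 CPM, of the 11 T cell markers 49.7, 31.1, 16.7 and 42.4 CPM and of the 11 dendritic cell markers 74.6, 47.8, 66.8 and 79.7 CPM. At least 6, 5, 10 and 9 of these markers were detected in each library. Depth and these lists were thus higher in OE-Vector 1 and OE-MLKL 3, as the members were. Some other lists did not follow them. The 10 macrophage markers summed to 1490, 2137, 1907 and 2550 CPM and the 7 endothelial markers to 30.5, 36.9, 45.6 and 46.5 CPM. Both were lowest in OE-Vector 1. The 13 cancer markers summed to 277, 233, 287 and 325 CPM and the 7 fibroblast markers to 90.1, 84.7, 97.4 and 132 CPM. In these lists OE-MLKL 2 was above OE-Vector 1. The part of depth and markers in the result was not tested.

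In macrophage-like cells the members were divided. Irgm1 was at 72.6, 39.8, 41.3 and 47.3 CPM, so that the OE-Vector library lay above all others (-0.88 ± 0.24, edgeR adjusted p = 0.74). For Gbp7 the OE-Vector library lay below all others, at 158.4, 204.4, 306.0 and 225.6 CPM (0.51 ± 0.35, edgeR adjusted p = 0.85). OE-Vector 1 was above all for 5 members and below all for 1, as for 17.9 and 36.7% of all genes. Fitted levels were lower for 7 members, compared with 46.1% of all genes, with a median of -0.31. No member passed by edgeR without OE-MLKL 1, 2 or 3, where 1.02, 0 and 2.32% of all genes did. The 7 B cell markers summed to 55.6, 16.2, 22.8 and 101 CPM in this class and the 7 NK cell markers to 19.1, 5.65, 5.41 and 21.4 CPM, with at least 7 and 5 detected. The 7 fibroblast markers summed to 27.0, 33.6, 30.8 and 38.0 CPM, lowest in OE-Vector 1. The 10 neutrophil markers summed to 776, 612, 871 and 1083 CPM, with OE-MLKL 2 above OE-Vector 1. The part of these lists in the result was not tested.

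In T cell-like cells fitted levels were lower for 9 members, compared with 47.6% of all genes, with a median of -0.49. OE-Vector 1 was above all OE-MLKL libraries for 4 members, compared with 18.1% of all genes, and below all for 0, compared with 26.2%. Igtp was at 97.9, 23.1, 51.4 and 64.8 CPM, a difference of -1.15 ± 0.41 (edgeR adjusted p = 0.95). Without OE-MLKL 3, when 9 members were tested, Gbp2, Irgm1 and Igtp passed, where 4.37% of all genes did, with the same limit. Without OE-MLKL 1 or 2 no member passed by edgeR, where 0.168 and 0.575% of all genes did. Markers of NK cells in T cell-like cells moved with these levels, at 2565, 725, 938 and 1792 CPM, with 7 of 7 detected. The 11 dendritic cell markers did not, at 34.9, 49.3, 58.8 and 56.8 CPM, lowest in OE-Vector 1. Neither did the 10 neutrophil markers, at 625, 474, 730 and 1086 CPM, where OE-MLKL 2 was above OE-Vector 1. The part of these lists in the result was not tested. In dendritic cell-like cells 5 members were fitted lower and 5 higher, with a median of 0.03, where 46.2% of all genes were fitted lower, from sums that held as few as 26 cells in OE-MLKL 1. OE-Vector 1 was above all OE-MLKL libraries for 1 member and below all for 2, compared with 18.4 and 23% of all genes. No member passed by edgeR without OE-MLKL 1, 2 or 3, where 0.0659, 0.122 and 0% of all genes did.

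**Figure D5:**
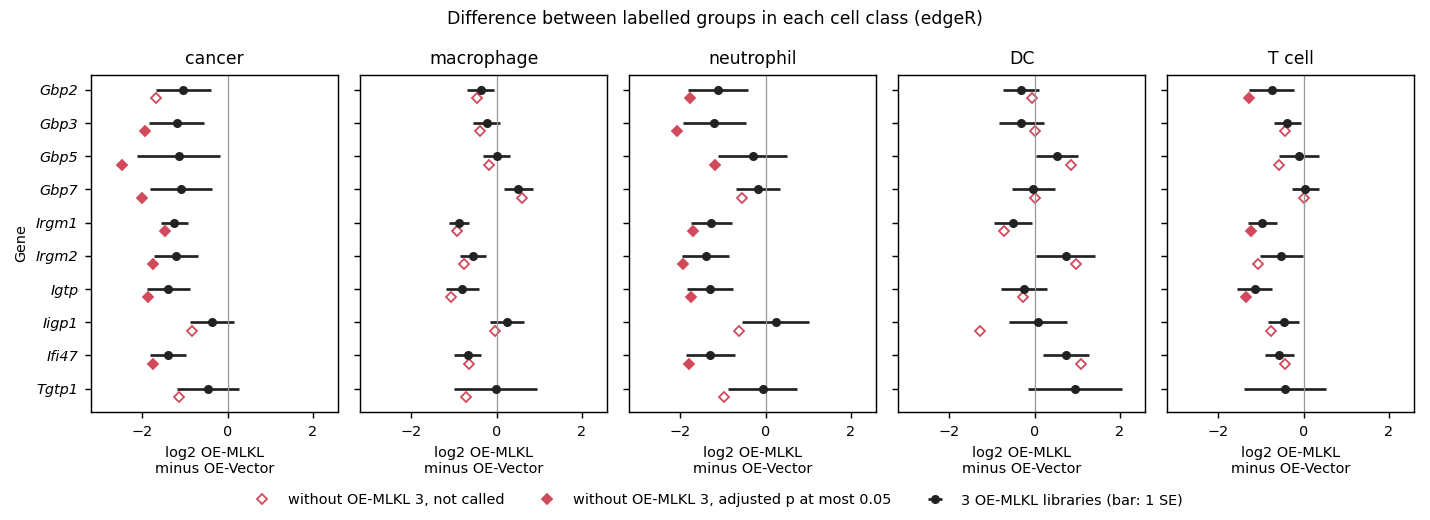
Difference of the 3 OE-MLKL libraries from OE-Vector 1 for each GTPase gene and class, as log2 from edgeR, with an SE worked back from its F statistic. All 10 values in cancer-like cells lie below 0, and Gbp7 in macrophage-like cells lies at 0.51.

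Whether the difference of the groups itself differed between classes was tested over the 100 combinations of gene and pair of classes. None passed by edgeR, and 6 stood at an unadjusted p under 0.05, among them Gbp7 in cancer-like against macrophage-like cells, with a difference of -1.78 ± 0.67 (edgeR adjusted p = 0.87). Of all genes, 0.0144, 0.0722, 0.00722 and 0.0217% passed for cancer-like cells against macrophage-like, neutrophil-like, dendritic cell-like and T cell-like cells. For macrophage-like cells against neutrophil-like, dendritic cell-like and T cell-like cells 0.0217, 0.00722 and 0.00722% passed. For neutrophil-like against dendritic cell-like cells 0.0144% passed, and 0% in the 2 other pairs.

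The genes upstream of the members and the other interferon targets did not pass in any class by edgeR either. Ifng in T cell-like cells differed by -0.83 ± 0.39 (edgeR adjusted p = 0.998), from the levels given above, of which OE-MLKL 3 was close to OE-Vector 1. Ifngr1 in cancer-like cells was at 199.8, 59.0, 40.7 and 99.6 CPM, so that OE-Vector 1 was above all others (-1.74 ± 0.39, edgeR adjusted p = 0.96). Type I interferon targets had a median of -1.57 in cancer-like, -1.32 in macrophage-like, -2.07 in neutrophil-like, -0.58 in dendritic cell-like and -1.90 in T cell-like cells, with 0 called in each. At an unadjusted p under 0.05 stood 7 of 11 of them in cancer-like, 10 of 11 in macrophage-like, 8 of 11 in neutrophil-like, 1 of 5 in dendritic cell-like and 6 of 9 in T cell-like cells, beside the shares of all genes given above. The other interferon-gamma targets had medians of -1.06 in cancer-like and -0.46 in macrophage-like cells. Genes of caspase-11 and the inflammasomes had medians of -0.53 and -0.04 there, and those of ubiquitin-like conjugation 0.05 and 0.06, near the median of all genes. The other GBP and IRG genes had medians of -0.61 and 0.15, and type I interferon receptor and signal genes -0.37 and -0.24. Genes of the interferon-gamma ligand, receptor and signal had -0.45 and -0.02. In neutrophil-like cells the medians were -0.62 for the other interferon-gamma targets, -0.80 for caspase-11 and inflammasome genes and -0.05 for ubiquitin-like conjugation. They were -0.22 for the other GBP and IRG genes, -0.64 for type I interferon receptor and signal genes and -0.75 for those of interferon-gamma.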

How the data were processed

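The authors deposited raw UMI counts of every gene in every barcode, with no filter and no normalisation. The labels name Cell Ranger 2.1.1 and mm10 and the file headers cellranger 7.1.0, and the counting of intronic reads is not given in the sources used here. Cells had at least 500 UMIs, over 200 genes and under 10% mitochondrial UMIs. A cell joined a class when at least 2 markers of the list were detected and the list exceeded a threshold per 10000 UMIs (12 for the cancer, dendritic cell and T cell lists, 100 for macrophage and neutrophil lists), and cells passing several lists were excluded (571 to 1427 per library), as the treatment of doublets. Passing the monocyte list did not exclude a cell. Passing the NK cell list excluded a T cell-like cell only where it exceeded the NK cell threshold by the larger factor. Thresholds were set after the data had been seen.

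Counts were summed per library and class and tested by edgeR's quasi-likelihood test (TMM, filterByExpr, Benjamini-Hochberg over all genes tested, 0.05), with library as a block between classes. That test returns no SE. Each SE given with an edgeR value is the absolute log2 difference divided by the square root of its F statistic. Alternatives were DESeq2, limma-voom, other scaling, filters and gates, thinning to 500 UMIs and leaving out each library. The test of group differences between classes was chosen after seeing the data. Intervals are exact 95% Poisson intervals and cover counting error only. The methods give 3 tumours per group, so that each library is taken as 1 tumour. The scripts were tested on simulated data. In sums simulated for the group comparison, a true log2 change of 1 was recovered for 1.56% of changed genes in cancer-like cells. In neutrophil-like cells it was recovered for 0%. A true change of 2 was recovered for 34.4 and 16.9%. The absence of calls between the groups thus does not show that differences of this size are absent. Sums were made in Python 3.11.15 with scipy 1.17.1 and numpy 2.4.6. Tests were run in R 4.3.3 with DESeq2 1.42.0, limma 3.58.1 and edgeR 4.0.16.

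The members and lists were chosen with earlier results of these data known. All members, the interferon-gamma ligand, receptor, Irf1 and Mlkl are named always, and 1 further gene of the rule is not reported here. Of the lists, up to 4 passing genes of smallest p per comparison, and the 5 most correlated genes, could be named. The 6 list genes Cxcl11, Gbp11, Gm12187, Gm12250, Mx1 and Mx2 were not found in the gene lists used.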

Additional observations from a re-analysis of the deposited data

How the results depend on the processing

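Of 582 values of a member in a group comparison under the alternatives, 533 kept direction and side of the threshold, 17 passed where the reported value had not and 32 turned direction. All 17 came without OE-MLKL 3, and the count of members passing ranged from 0 to 7 in cancer-like, 0 to 7 in neutrophil-like and 0 to 3 in T cell-like cells when 1 OE-MLKL library was left out. Values turned direction as follows. With DESeq2 these were Gbp5 in macrophage-like (-0.0048) and Iigp1 in dendritic cell-like cells (-0.13), with limma-voom Gbp5 in macrophage-like (-0.024), Iigp1 in neutrophil-like (-0.017) and Iigp1 in dendritic cell-like cells (-0.064), and with scaling by library size Tgtp1 in macrophage-like (0.12), Gbp7 in neutrophil-like (0.070), Tgtp1 in neutrophil-like (0.19) and Gbp7 in dendritic cell-like cells (0.048). Gbp5 in macrophage-like cells was -0.0096 without a filter, -0.074 with cells of a second class kept and -0.056 with thinned cells. Gbp7 in dendritic cell-like cells was 0.0070 with a mean of at least 20 UMIs, Irgm1 in dendritic cell-like cells 0.083 with a stricter gate, and Tgtp1 in neutrophil-like cells 0.084 in deep cells. With thinned cells Gbp7 was -0.048 and Irgm2 0.020 in T cell-like cells, and Igtp in cancer-like against T cell-like cells was -0.16. Leaving out 1 OE-MLKL library gave -0.18 to 0.12 for Gbp5, -0.73 to 0.32 for Tgtp1 and -0.033 to 0.42 for Iigp1 in macrophage-like cells. It gave -1.18 to 0.083 for Gbp5, -0.56 to 0.081 for Gbp7, -0.99 to 0.27 for Tgtp1 and -0.63 to 0.58 for Iigp1 in neutrophil-like cells. It gave -0.26 to 0.12 for Gbp7, -0.69 to 0.010 for Gbp3 and -1.28 to 0.41 for Iigp1 in dendritic cell-like cells, and -0.57 to 0.15 for Gbp5 and -0.018 to 0.11 for Gbp7 in T cell-like cells. The cause was not tested. Of the 100 tests between classes 48 passed without the library term, compared with 78, and 65 to 81 under the other alternatives. Of 1400 single values, 108 no longer passed, 24 passed newly and 1, that of Igtp, turned direction. Over all genes, calls ranged over the alternatives from 0 to 385 in cancer-like, 0 to 310 in macrophage-like, 0 to 1968 in neutrophil-like, 0 to 26 in dendritic cell-like and 0 to 481 in T cell-like cells, compared with 0, 0, 1, 4 and 1 as reported. No paired analysis was possible because the analysed libraries of both groups share only replicate number 1. The dendritic cell-like sums, of 26 to 182 cells, limit what can be seen there.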

Other observations

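Cells outside the 5 classes also carried the members, and are given as values without a test. Cells that passed an endothelial list numbered 24 to 42 per library and held the 10 genes at 2127 to 3140 CPM in sum, with Iigp1 at 668 to 1144 CPM and Gbp2 at 502 to 688 CPM, which put their Iigp1 above that of cancer-like cells in every library. Cells of a fibroblast list, 62 to 122 per library, had 678 to 1921 CPM in sum and Iigp1 at 248 to 712 CPM. Cells of a monocyte list had 2128 to 3587 CPM in sum in the 3 libraries with at least 20 such cells, and Gbp2 at 803 to 2013 CPM. Cells of a B cell list, 54 to 145 per library, had 171 to 373 CPM in sum and Iigp1 at 5.68 to 30.6 CPM.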
